A study of Mus with 6 samples.

Results

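The genes described here belong to Wnt, Hedgehog and Notch signaling, and were measured by RNA sequencing of knee cartilage chondrocytes. Members were chosen by gene name, with earlier results of these data known. They cover ligands, receptors, inhibitors, intracellular components and target repressors of the 3 pathways. The name patterns fit 112 protein-coding RefSeq genes, of which 48 were matched by position to a row of the count table. A member also had to have an Ensembl identifier number in either of the ranges of the table where counts and gene labels line up. This left 26 members of the 11659 rows in the table, with 18 for Wnt, 2 for Hedgehog and 6 for Notch. The 22 rows outside these ranges include those labelled Gli1, Gli2, Gli3, Ptch1, Sufu, Axin1, Tcf7l1, Tcf7l2, Wnt5a and Hes1, and they were not used. Axin2, Lef1, Ihh, Notch1, Notch3 and Hey1 were not analysed here. The 6 samples came from 12-week-old male mice labelled with the strain C57BL/6J. Of these, 3 samples are labelled wild type (WT) and 3 are labelled Sirt6 cKO, a deletion of floxed Sirt6 driven by the tamoxifen-inducible Col2a1-CreERT2 transgene. The study does not say whether the WT mice of the sequencing carried the Cre transgene or floxed alleles, or how the sequenced mice were given tamoxifen. Its chondrocytes were digested from dissected articular cartilage and cultured to first passage. The study describes the data as chondrocytes of 3 control and 3 Sirt6 KO mice, which reads as 1 mouse a sample, but the labels name no animals, and p-values measure the spread between these samples.

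In Wnt signaling, secreted lipid-modified ligands bind Frizzled receptors and Lrp co-receptors, Dishevelled proteins are recruited, and β-catenin escapes a destruction complex and acts with Tcf and Lef factors in the nucleus. In Hedgehog signaling, ligand binding to Patched releases the membrane protein Smoothened at the primary cilium, and Gli transcription factors are activated. In Notch signaling, a ligand on 1 cell triggers cleavage of a Notch receptor on its neighbour, and the freed intracellular domain binds Rbpj to switch on Hes and Hey genes. In cartilage, Indian hedgehog paces the growth plate, Wnt ligands help set joint and hypertrophic fates, and Notch restrains chondrocyte maturation.

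The counts summed to between 25726958 and 30156935 per sample. Sirt6 had 10273, 9963 and 10943 counts in the WT samples and 1056, 862 and 660 in the Sirt6 cKO samples, and its log2 fold change was -3.69 ± 0.21 (SE). WT replicate 1 stood apart from the other samples of its genotype. Against WT replicates 2 and 3, its median log2 level was 0.37 higher for genes with up to 2000 bases of exon and 0.42 lower for genes with over 8000 bases. In the 3 Sirt6 cKO samples these medians lay between -0.08 and 0.08. Of 20 chondrocyte markers, 5 were in usable rows, and 3 of these were called higher in Sirt6 cKO, or 60% beside 8.72% of all rows. The summed level of the 5 was 199 to 217 CPM in WT and 393 to 492 CPM in Sirt6 cKO samples, most of it from Sox9. CPM are counts divided by the scaled library size, as a rate per 1000000. Sox9 was at 192 CPM in WT and 295 CPM in Sirt6 cKO, and passed higher. Col11a1 (143 to 235 counts in WT and 3116 to 3622 in Sirt6 cKO samples), Comp (0.674 and 7.82 CPM) and Ucma (0.172 and 8.33 CPM) were the 3 called. Ucma had only 2 to 6 counts in the WT samples. Col9a3 had 5.90 and 4.09 CPM without passing, and Col2a1 and Acan were not analysed here. Of 16 fibroblast markers, 10 were usable and 5 were called higher in Sirt6 cKO, or 50% beside 8.72% of all rows. They were Dcn (log2 fold change 3.36), Pdgfra (2.37), Lum (6.56, with 0 counts in WT replicate 1), Col1a1 (1.34) and Col1a2 (1.99). Prrx1 passed higher and Cd34 lower, and Thy1 (0.09), Pdpn (-0.36) and Has1 (-0.26) did not pass. The summed level of the 10 was 11940 to 12264 CPM in WT and 36964 to 42530 CPM in Sirt6 cKO samples, most of it from Col1a1 (means of 4032 and 10178 CPM) and Col1a2 (6649 and 26400 CPM). The only usable endothelial marker of 16, Eng, had 2.10 to 3.53 CPM in WT and 4.39 to 4.93 CPM in Sirt6 cKO samples. Of 12 macrophage and leukocyte markers, 1 was usable, Cd68, with 0.205 to 1.73 CPM over both genotypes. Of 5 usable pericyte and smooth muscle markers of 10, 3 passed higher and Cnn1 was called lower (-1.06), with summed levels of 795 to 1147 CPM in WT and 1193 to 1489 CPM in Sirt6 cKO. Of 10 hypertrophic and osteoblast markers, 2 were usable, with 713 to 904 CPM in WT and 1119 to 1169 CPM in Sirt6 cKO. The call of Cnn1 was lost with upper-quartile normalization, with total counts only, with limma-voom and without WT replicate 1 (-0.71). None of the skeletal muscle or adipocyte markers was in a usable row. The part of other cell types in the results below was not tested.

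Changes among the 26 members ran in both directions. The largest were increases of Sfrp2, Cdon and Lgr5 and a decrease of Dkk2, while the β-catenin gene Ctnnb1, the receptors Fzd1 and Notch2 and the ligand Jag1 did not pass the test. The genotypes were compared over the whole table by edgeR's quasi-likelihood test, where a gene passed at a Benjamini-Hochberg adjusted p under 0.05 and was called when its fold change was also over 2 or under 0.5. All 26 members were tested. Of these, 7 were called higher and 3 lower in Sirt6 cKO, which is 38.5% of the members beside 15.9% of all 11246 tested rows in both directions. Passing at any fold, 11 members were higher and 6 lower, or 65.4%, beside 46.8% of all rows. The samples of the genotypes did not overlap in 21 members, or 80.8%, beside 60.9% of all rows. The median size of the log2 fold change was 0.81 over the members and 0.50 over all rows. The median with its sign was 0.23 and 0.00. For a single gene, an exact permutation test of 3 samples against 3 cannot give a two-sided p under 0.1, and all 21 members without overlap had that value. Bulk counts cannot tell fewer cells that express a gene from less RNA per cell.

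**Figure D1:**
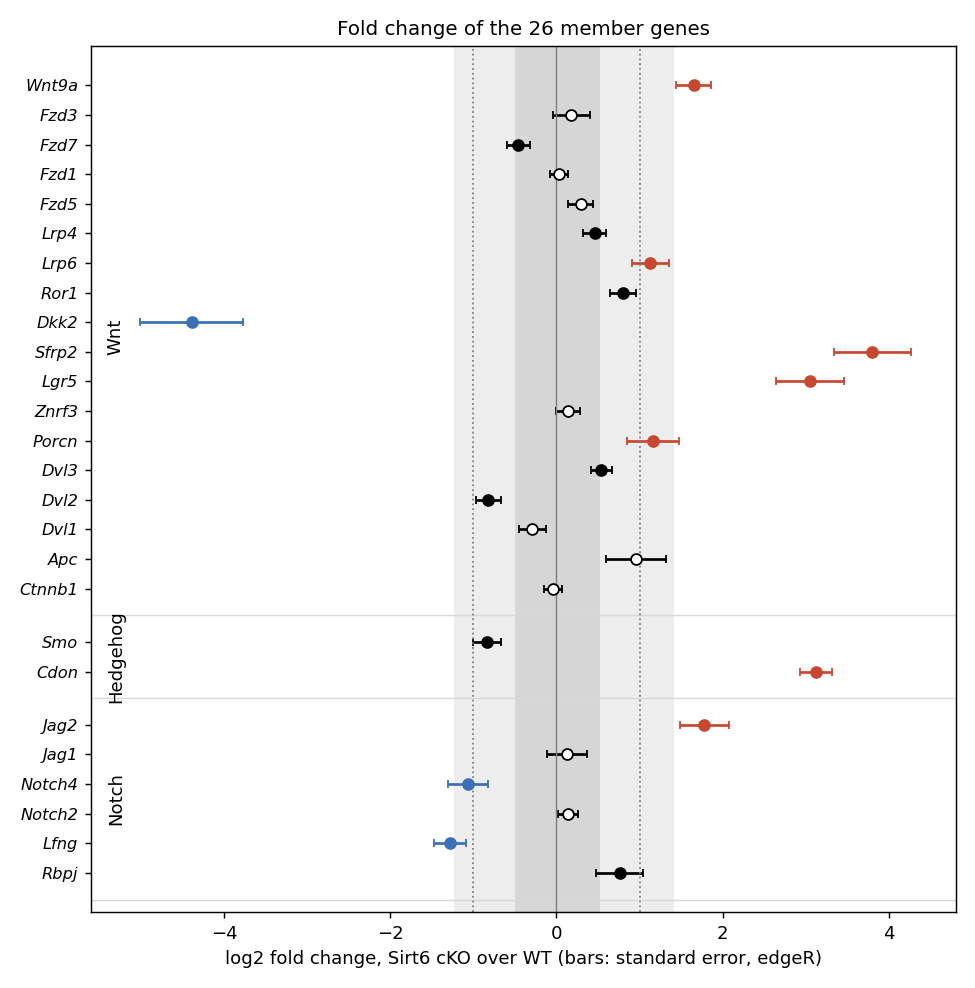
Log2 fold change of each member in Sirt6 cKO over WT chondrocytes, with standard errors from edgeR, grouped by pathway. Red and blue points are called higher and lower, filled black points passed the test under the fold threshold, and open points did not pass. The dark and light bands hold the middle 50% and 90% of all 11246 tested rows, from -0.49 to 0.51 and from -1.22 to 1.40, and dotted lines mark a 2-fold change.

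Among the Wnt members, 5 were called higher and 1 lower, beside 8.72% and 7.15% of all rows. Passing at any fold were 8 higher and 3 lower, beside 22.5% and 24.3%. The members held 1 ligand and 1 gene of ligand processing. Wnt9a, a ligand known for its part in joint formation (ENSMUSG00000000126, chromosome 11 from 59306928 to 59333552), had 188, 141 and 194 counts in the WT samples, against 591, 649 and 526 in the Sirt6 cKO samples. Each Sirt6 cKO sample was well above each WT sample. Its mean was 6.33 ± 1.52 CPM (SD, n = 3) in WT and 19.9 ± 1.94 CPM (SD, n = 3) in Sirt6 cKO, a log2 fold change of 1.65 ± 0.21 (SE, adjusted p = 0.000404). Porcn, the acyltransferase that adds the lipid Wnt ligands need for secretion (ENSMUSG00000031169, chromosome X from 8193848 to 8206525), had 33, 52 and 28 counts in the WT samples, against 79, 95 and 95 in the Sirt6 cKO samples. There was no overlap, and WT replicate 2 was the highest of its genotype. The log2 fold change was 1.16 ± 0.31 (SE, adjusted p = 0.0143). The call of Porcn was lost without WT replicate 3, at 0.95, and without Sirt6 cKO replicate 2, at an adjusted p of 0.0502 with a value of 1.13.

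Of the 7 Wnt receptors and co-receptors, 3 passed higher and 1 lower, or 57.1% beside 46.8% of all rows, and 1 was called, or 14.3% beside 15.9%. Levels of different genes are compared here as CPM per kilobase of summed exon length. By that measure Fzd1 stood first in WT chondrocytes at 37.1 ± 0.884 (SD, n = 3), followed by Fzd7 at 27.1 ± 0.661, Lrp6 at 14.2 ± 4.39 and Ror1 at 3.41 ± 0.477. Fzd3 at 2.18 ± 0.573, Lrp4 at 2.09 ± 0.171 and Fzd5 at 1.65 ± 0.134 came last. Over the WT samples Fzd3 overlapped with Lrp4 and with Fzd5, and the other neighbours in this order did not overlap.
Lrp6, the co-receptor that carries the signal inward once Wnt binds Frizzled (ENSMUSG00000030201, chromosome 6 from 134446476 to 134566965), had 2173, 4751 and 5094 counts in the WT samples, against 8507, 10011 and 8678 in the Sirt6 cKO samples. The Sirt6 cKO samples lay above all WT samples, and WT replicate 1 was low. Lrp6 has 9822 bases of exon, in the class where that library was low. Its log2 fold change was 1.13 ± 0.22 (SE, adjusted p = 0.00391). Without WT replicate 1 it was 0.89 ± 0.10 (SE, adjusted p = 0.000136), which passes the test but not the fold threshold. Fzd7 had 3059, 3814 and 4034 counts in the WT samples, against 2674, 2511 and 3233 in the Sirt6 cKO samples. In CPM it fell from 130 ± 3.17 to 94.7 ± 13.1 (SD, n = 3 each), a log2 fold change of -0.46 ± 0.14 (SE, adjusted p = 0.0251). The genotypes did not overlap in CPM. It no longer passed in 4 of the 6 fits that left out 1 sample, namely WT replicates 2 and 3 and Sirt6 cKO replicates 1 and 2, with adjusted p from 0.067 to 0.106.
As Lrp6 rose and Fzd7 fell, their order reversed. The ratio of Lrp6 to Fzd7 per kilobase was 0.347, 0.609 and 0.617 in the WT samples and 1.56, 1.95 and 1.31 in the Sirt6 cKO samples. Being a ratio within each sample, it does not depend on the scaling between samples. A difference that varies with exon length, as in WT replicate 1, does not cancel between Lrp6 (9822 bases) and Fzd7 (4801 bases). The groups did not overlap, at the smallest exact p of 0.1.
Fzd1 had 3833, 4919 and 4880 counts in the WT samples, against 4906, 5042 and 4800 in the Sirt6 cKO samples. In CPM the samples lay between 159 and 168 in both genotypes, and its log2 fold change was 0.03 ± 0.11 (SE, adjusted p = 0.842). Fzd1 made up 54.6% ± 1.05 of the summed level per kilobase of the 4 Frizzled members in WT and 61.1% ± 3.20 in Sirt6 cKO (SD, n = 3 each).
Fzd3 had 156, 296 and 336 counts in the WT samples, against 272, 337 and 320 in the Sirt6 cKO samples, and WT replicate 1 alone was low. Its adjusted p was 0.533. Fzd5 had 254, 333 and 375 counts in the WT samples, against 421, 391 and 429 in the Sirt6 cKO samples, with no overlap in CPM but an adjusted p of 0.146. Ror1, a receptor-like tyrosine kinase that binds Wnt5a, rose from 19.6 ± 2.75 to 34.3 ± 3.21 CPM (SD, n = 3 each), a log2 fold change of 0.80 ± 0.16 (SE, adjusted p = 0.0036). Lrp4, which binds agrin and the Wnt inhibitor sclerostin, rose by 0.46 on the log2 scale (adjusted p = 0.0278). Without WT replicate 2, Sirt6 cKO replicate 1 or Sirt6 cKO replicate 2, Lrp4 no longer passed, with adjusted p of 0.0875, 0.0988 and 0.106.

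**Figure D2:**
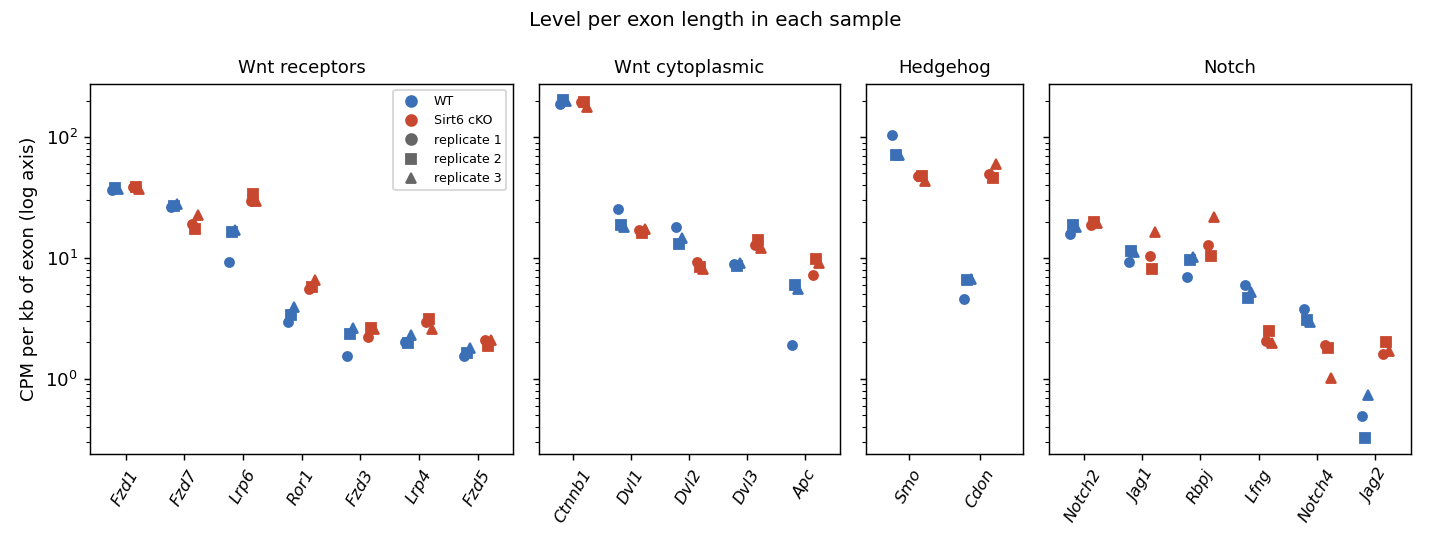
Level of member genes in each of the 6 samples as CPM per kilobase of exon, on a log axis, for the Wnt receptors, the Wnt cytoplasmic components, the Hedgehog members and the Notch members. Blue is WT, red is Sirt6 cKO, and the shape gives the replicate. Ctnnb1 and Fzd1 overlap between genotypes, Lrp6 passes above Fzd7 in the Sirt6 cKO samples, and Cdon reaches the level of Smo.

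The secreted Wnt inhibitors moved in opposite directions, and both are low-count genes. Dkk2, which binds Lrp5 and Lrp6 (ENSMUSG00000028031, chromosome 3 from 132085292 to 132180293), had 60, 78 and 130 counts in the WT samples, against 6, 0 and 7 in the Sirt6 cKO samples. It was nearly absent from the Sirt6 cKO libraries, and the count of 0 in replicate 2 allows up to 0.0998 CPM. The mean fell from 3.14 ± 1.00 to 0.147 ± 0.128 CPM (SD, n = 3 each), a log2 fold change of -4.39 ± 0.62 (SE, adjusted p = 0.00078). Sfrp2, a secreted Frizzled-related protein that binds Wnt ligands (ENSMUSG00000027996, chromosome 3 from 83766321 to 83774316), had 2, 14 and 18 counts in the WT samples, against 141, 161 and 196 in the Sirt6 cKO samples. WT replicate 1 was lowest, and no sample overlapped. The mean rose from 0.384 ± 0.268 to 5.60 ± 0.920 CPM (SD, n = 3 each), a log2 fold change of 3.80 ± 0.46 (SE, adjusted p = 0.000333). Without WT replicate 1 the value was 3.38. Sfrp2 is also a gene of fibroblasts, of whose 10 usable markers 5 were called higher in the same samples, and their part in its change was not tested.
Lgr5, a receptor for R-spondins that prolong Wnt signaling (ENSMUSG00000020140, chromosome 10 from 115450311 to 115587780), had 27, 12 and 40 counts in the WT samples, against 193, 188 and 318 in the Sirt6 cKO samples. Sirt6 cKO replicate 3 was highest, and the lowest Sirt6 cKO sample was still above the highest WT sample. Its mean rose from 0.95 ± 0.481 to 7.87 ± 2.49 CPM (SD, n = 3 each), giving a log2 fold change of 3.05 ± 0.41 (SE, adjusted p = 0.000608). Its span overlaps the protein-coding gene A930009A15Rik, and reads of both cannot be told apart where the strand setting of the counting is not given. Znrf3, the membrane ubiquitin ligase that clears Frizzled from the cell surface and that Lgr proteins counteract, had 732, 845 and 943 counts in the WT samples, against 898, 954 and 1090 in the Sirt6 cKO samples. These overlapped in CPM, and the adjusted p was 0.429.

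**Figure D3:**
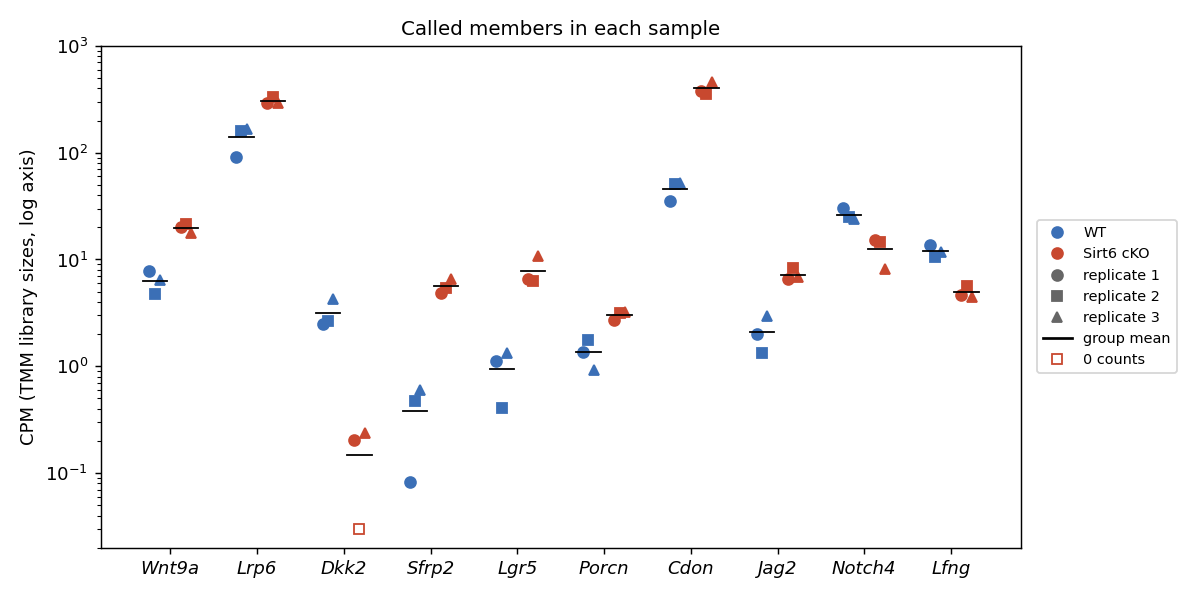
CPM of the 10 called members in each sample on a log axis, with blue for WT, red for Sirt6 cKO, shapes for replicates and black lines for group means. The open square stands for the 0 counts of Dkk2 in Sirt6 cKO replicate 2 and is drawn at the bottom of the axis. In each of the 10 genes the samples of the genotypes do not overlap.

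Inside the cell, the dishevelled genes shifted against each other, while Ctnnb1 gave no detectable change. Dishevelled proteins relay the signal from Frizzled. Dvl2 had 2720, 2420 and 2755 counts in the WT samples, against 1690, 1584 and 1522 in the Sirt6 cKO samples. Every Sirt6 cKO count was lower. The log2 fold change was -0.82 ± 0.15 (SE, adjusted p = 0.00285). Dvl3 had 1052, 1245 and 1360 counts in the WT samples, against 1840, 2080 and 1739 in the Sirt6 cKO samples, all of them higher. Its log2 fold change was 0.54 ± 0.13 (SE, adjusted p = 0.00818). Dvl1 had 3026, 2764 and 2714 counts in the WT samples, against 2476, 2396 and 2595 in the Sirt6 cKO samples, and its log2 fold change was -0.29 (adjusted p = 0.154).
Of the summed dishevelled level per kilobase, Dvl2 made up 33.8% ± 1.38 in WT and 22.3% ± 1.06 in Sirt6 cKO (SD, n = 3 each). Dvl3 made up 20.2% ± 2.65 and 33.8% ± 2.58. Both shares separated the genotypes without overlap, at the smallest exact p of 0.1, whereas the share of Dvl1 was 46.0% ± 2.62 and 43.8% ± 2.54 and overlapped. So Dvl2 ranked above Dvl3 in each WT sample and below it in each Sirt6 cKO sample. Dvl2 shares part of its span with Acadvl and Dvl1 with Tas1r3.
Ctnnb1, which encodes β-catenin, was the most abundant member per kilobase in both genotypes, at 196 in WT and 190 in Sirt6 cKO, or 1001 ± 35.6 and 971 ± 51.1 CPM (SD, n = 3 each). It had 23116, 30288 and 30735 counts in the WT samples, against 29264, 30015 and 27004 in the Sirt6 cKO samples, overlapping in CPM. Its log2 fold change was -0.04 ± 0.11 (SE, adjusted p = 0.767), and the sign turned to 0.03 with upper-quartile normalization and to 0.01 with total counts only.
Apc, a scaffold of the complex that degrades β-catenin, had 723, 2758 and 2644 counts in the WT samples, against 3334, 4667 and 4200 in the Sirt6 cKO samples. WT replicate 1 lay far below the other samples, 1.57 lower in log2 CPM than the mean of WT replicates 2 and 3. With 15753 bases of exon, Apc is the longest member. It did not pass the test at a log2 fold change of 0.96 ± 0.36 (SE, adjusted p = 0.0548). Without WT replicate 1 it passed with a smaller value, 0.60, and a standard error of 0.13 (adjusted p = 0.00562). With the replicate number as a block it was called, at 1.11 and an adjusted p of 0.00132, which raised the Wnt members called higher from 5 to 6. It was also called with upper-quartile normalization (1.04), with limma-voom (1.11), without WT replicate 2 (1.24) and without WT replicate 3 (1.16).

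**Figure D4:**
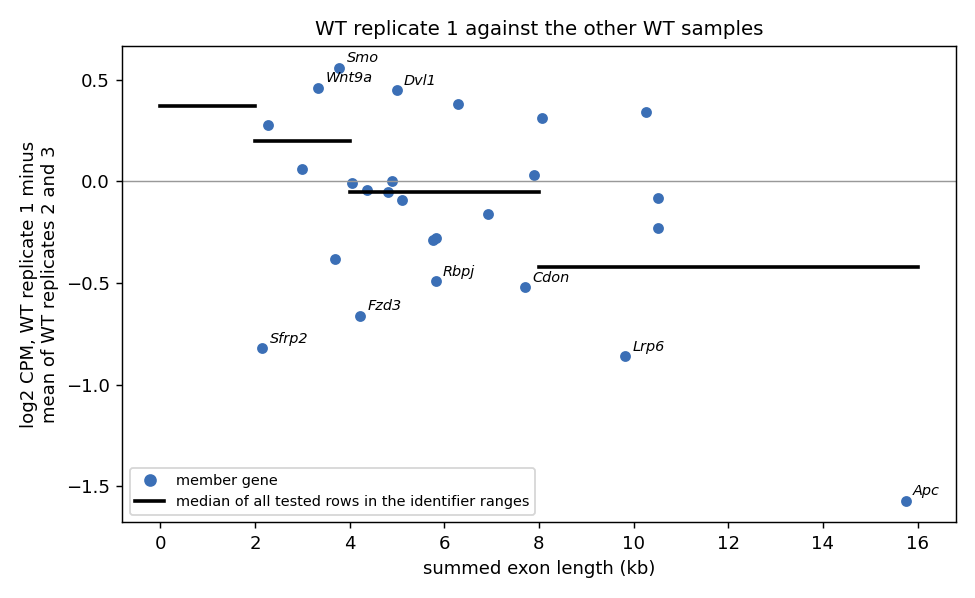
Log2 CPM of WT replicate 1 minus the mean of WT replicates 2 and 3 for each member against summed exon length in kilobases. Black lines give the median of all tested rows in the identifier ranges for 4 length classes, which ran from 0.37 for the shortest to -0.42 for the longest. Apc at -1.57 and Lrp6 at -0.86 lie below the median of their class.

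Of a hand-written list of 56 other Wnt pathway genes, 21 were in usable rows, and 2 of these were called higher and 1 lower, or 14.3% beside 15.9% of all rows. At any fold, 2 passed higher and 5 lower, or 33.3% beside 46.8% of all rows, with a median log2 fold change of 0.18. Tle2, a Groucho-family co-repressor that binds Tcf factors, had 350, 653 and 558 counts in the WT samples, against 3582, 5218 and 3708 in the Sirt6 cKO samples. The genotypes were far apart, at a log2 fold change of 2.93 ± 0.21 (SE, adjusted p = 2.24e-05). Its relatives Tle1 and Tle3 had values of 0.02 and 0.36 and did not pass. Daam2, a formin of the planar branch of Wnt signaling, rose by 1.38 (adjusted p = 0.00272) from 1.66 to 4.32 CPM. Ruvbl1, a chromatin ATPase that binds β-catenin, fell by 1.78 on the log2 scale (adjusted p = 0.000358), in a span shared with Gm46965. Vangl1, a planar polarity membrane protein, fell by 0.89 (adjusted p = 0.000761), and its paralog Vangl2 had a value of 0.22 with an adjusted p of 0.214. Without WT replicate 1, 7 genes of the list passed higher and 6 lower. With all samples kept, 5 passed higher and 5 lower with upper-quartile normalization, and 4 and 5 with total counts only and with DESeq2, so the balance of directions in this list depended on the scaling, the tool and that library.

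The Hedgehog members were the signal transducer Smo and the co-receptor Cdon, and they moved apart. Cdon, a cell-surface protein that binds Hedgehog ligands together with Patched (ENSMUSG00000038119, chromosome 9 from 35421128 to 35507651), had 854, 1491 and 1557 counts in the WT samples, against 11127, 10663 and 13720 in the Sirt6 cKO samples. The lowest Sirt6 cKO sample held several times the reads of the highest WT sample. The mean rose 8.72-fold, from 45.8 ± 8.97 to 400 ± 56.6 CPM (SD, n = 3 each), a log2 fold change of 3.12 ± 0.19 (SE, adjusted p = 1.04e-05). Over the alternatives the value lay between 2.97 and 3.23, the lowest being without WT replicate 1. In the same samples 5 of 10 usable fibroblast markers were called higher, and their part in the rise of Cdon was not tested.
Smo, the transducer that Patched holds in check (ENSMUSG00000001761, chromosome 6 from 29735694 to 29761365), had 9577, 7924 and 8161 counts in the WT samples, against 5227, 5448 and 4832 in the Sirt6 cKO samples. All WT samples were higher, WT replicate 1 most of all. The mean fell from 312 ± 74.3 to 174 ± 9.85 CPM (SD, n = 3 each), a log2 fold change of -0.84 ± 0.17 (SE, adjusted p = 0.00472), under the fold threshold. Without WT replicate 1 it was -0.63 (adjusted p = 0.000481). The ratio of Cdon to Smo per kilobase was 0.0437, 0.0922 and 0.0935 in the WT samples and 1.04, 0.959 and 1.39 in the Sirt6 cKO samples. Cdon thus lay far below Smo in WT and near it in Sirt6 cKO chondrocytes. The rows labelled Gli1 and Ptch1 could not be used, so neither of these target genes of Hedgehog signaling was measured among the members.

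**Figure D5:**
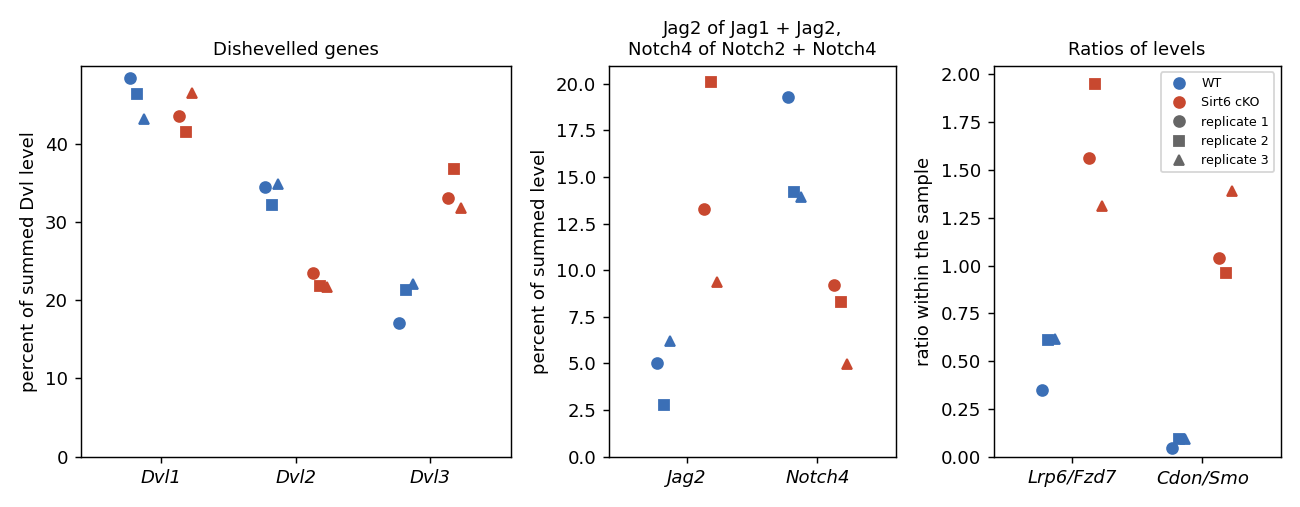
Ratios within each sample, which do not depend on scaling between samples, computed from CPM per kilobase. A difference between libraries that varies with exon length does not cancel in them. The panels show the share of each dishevelled gene in their summed level, the shares of Jag2 in Jag1 plus Jag2 and of Notch4 in Notch2 plus Notch4, and the ratios Lrp6 to Fzd7 and Cdon to Smo. Blue (WT) and red (Sirt6 cKO) points overlap only for Dvl1.

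Of 39 other Hedgehog pathway genes listed by hand, 21 were in usable rows. Here 10 passed higher and 2 lower, or 57.1% beside 46.8% of all rows (22.5% higher and 24.3% lower), and 4 and 1 were called, or 23.8% beside 15.9%. Without Sirt6 cKO replicate 1, 8 passed higher and 1 lower. Of its 6 usable Ift genes, whose products carry cargo along the primary cilium and which were set apart after their values were seen, Ift52 (0.63), Ift80 (1.19), Ift88 (1.55), Ift122 (0.88) and Ift172 (0.70) rose in log2 fold change, and Ift20 had 0.21 with an adjusted p of 0.261. Ift88 had 59, 236 and 218 counts in the WT samples, against 513, 561 and 472 in the Sirt6 cKO samples, with WT replicate 1 far below the other WT samples. Without that library Ift88 was at 1.19 (adjusted p = 0.000271) and Ift80 at 0.85, the latter no longer called. Kif3a, a motor subunit of the same transport, rose by 0.68 (adjusted p = 0.0238), and Kif3b had 0.27 (adjusted p = 0.119). These cilium genes serve other pathways as well.
Disp1, which releases Hedgehog ligands from the cells that make them, had 514, 722 and 571 counts in the WT samples, against 1517, 1473 and 1274 in the Sirt6 cKO samples, and its log2 fold change was 1.15 (adjusted p = 0.000532). Stk36, a kinase related to Drosophila fused, rose by 1.88 (adjusted p = 0.000776). Arrb1, a β-arrestin that binds many membrane receptors including Smo, fell by 1.25 (adjusted p = 0.000382). Hhat, the acyltransferase that lipidates Hedgehog ligands, fell by 0.87 (adjusted p = 0.0129). The protein kinase A subunits Prkaca and Prkacb, which restrain Gli factors, did not pass, whereas the regulatory subunit Prkar1a rose by 0.56 (adjusted p = 0.00917). The median of the list was 0.42.

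Of the 6 Notch members, the ligand Jag2 was called higher and the receptor Notch4 and the Fringe enzyme Lfng lower, which is 1 and 2 members beside 8.72% and 7.15% of all rows. Jag2, a Notch ligand (ENSMUSG00000002799, chromosome 12 from 112908590 to 112929495), had 48, 39 and 90 counts in the WT samples, against 190, 248 and 205 in the Sirt6 cKO samples. The groups were separate, at a log2 fold change of 1.78 ± 0.30 (SE, adjusted p = 0.00184). Jag1, the more abundant ligand, had 1303, 1983 and 1960 counts in the WT samples, against 1777, 1421 and 2847 in the Sirt6 cKO samples. In CPM, Sirt6 cKO replicate 3 was the highest sample and replicate 2 the lowest, so the genotypes overlapped. The log2 fold change was 0.13 ± 0.24 (SE, adjusted p = 0.677), and it turned to -0.18 without Sirt6 cKO replicate 3. The share of Jag2 in the summed level of both ligands per kilobase was 4.66% ± 1.75 in WT and 14.3% ± 5.40 in Sirt6 cKO (SD, n = 3 each), without overlap.
Notch2 was the main receptor of the 2 measured, and did not pass. It had 3980, 5767 and 5795 counts in the WT samples, against 5724, 6291 and 6057 in the Sirt6 cKO samples, and its log2 fold change was 0.14 ± 0.12 (SE, adjusted p = 0.37). Notch4, a receptor best known from endothelium (ENSMUSG00000015468, chromosome 17 from 34564268 to 34588503), had 728, 733 and 719 counts in the WT samples, against 444, 437 and 242 in the Sirt6 cKO samples. All Sirt6 cKO samples were lower, replicate 3 by far. The log2 fold change was -1.06 ± 0.24 (SE, adjusted p = 0.00731). It passed in each of the 16 alternatives that gave a value, but the fold call was lost without WT replicate 1 (-0.94), without Sirt6 cKO replicate 3 (-0.81), with upper-quartile normalization (-0.97) and with total counts only. The only usable endothelial marker, Eng, passed higher, but not without WT replicate 2, WT replicate 3, Sirt6 cKO replicate 1 or Sirt6 cKO replicate 2, and the part of endothelial cells in the fall of Notch4 was not tested. Notch4 held 15.8% ± 3.00 of the summed level of both receptors in WT and 7.48% ± 2.23 in Sirt6 cKO (SD, n = 3 each). That sum was 20.8 ± 1.15 and 20.9 ± 0.699 CPM per kilobase, overlapping between the genotypes.
Lfng, the lunatic Fringe enzyme that adds a sugar to Notch and so tunes its choice of ligand (ENSMUSG00000029570, chromosome 5 from 140607341 to 140615543), had 330, 314 and 358 counts in the WT samples, against 136, 171 and 133 in the Sirt6 cKO samples. Every Sirt6 cKO sample was lower, and the spread within each genotype was small. The mean fell from 12.1 ± 1.55 to 4.94 ± 0.649 CPM (SD, n = 3 each), a log2 fold change of -1.28 ± 0.19 (SE, adjusted p = 0.000921).
Rbpj, the DNA-binding partner of activated Notch, had 976, 1636 and 1783 counts in the WT samples, against 2196, 1795 and 3780 in the Sirt6 cKO samples. In CPM, Sirt6 cKO replicate 3 was at 128 and replicate 2 at 59.7, just above the highest WT sample at 58.9. The log2 fold change was 0.76 ± 0.28 (SE, adjusted p = 0.0481). It no longer passed without any 1 of WT replicates 1, 2 or 3 or Sirt6 cKO replicates 1 or 3, and was 0.40 with an adjusted p of 0.151 without Sirt6 cKO replicate 3. With all samples kept, it also missed the threshold with limma-voom (adjusted p = 0.0634) and with total counts only (adjusted p = 0.0502). That sample differed from the other Sirt6 cKO samples by 0.92 in log2 CPM for Rbpj, 0.84 for Jag1 and -0.83 for Notch4. Of all 26 members, these 3 and Lgr5 differed there by more than 0.5, as did 10.1% of 6617 tested rows in the identifier ranges.

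Of 44 other Notch pathway genes listed by hand, 28 were in usable rows, with 9 passing higher and 5 lower, or 14 of 28 beside 46.8% of all rows, and 3 and 2 called, or 17.9% beside 15.9%. The median log2 fold change was 0.21. Psen2, a subunit of γ-secretase, the protease that cuts Notch and many other membrane proteins, had 96, 46 and 55 counts in the WT samples, against 271, 279 and 248 in the Sirt6 cKO samples, and its log2 fold change was 1.89 (adjusted p = 0.00238). Of other subunits, Aph1b rose by 1.43 (adjusted p = 0.0024), while Ncstn (-0.04), Aph1a (-0.11) and Psenen (-0.11) did not pass. Of the ubiquitin ligases that act on ligands or receptors, Dtx3 (1.42), Neurl1a (0.99), Mib2 (0.83) and Fbxw7 (0.71) rose, and Dtx2 (-0.08), Dtx4 (0.22) and Itch (0.55) did not pass. Of the enzymes that add sugars to Notch repeats, Eogt fell by 1.10 (adjusted p = 0.00167), Pofut1 by 0.44 (adjusted p = 0.0252) and Poglut3 by 0.43 (adjusted p = 0.0477), and Poglut1 had -0.16 without passing. These enzymes also modify other proteins with EGF-like repeats. The non-canonical ligands Dlk1 and Dlk2 parted, with Dlk1 at 1050 CPM in WT and 1820 CPM in Sirt6 cKO (log2 fold change 0.79, adjusted p = 0.00181). Dlk2 had 110, 54 and 92 counts in the WT samples, against 21, 18 and 14 in the Sirt6 cKO samples, and fell by 2.38 (adjusted p = 0.002), in a span shared with Abcc10. Without WT replicate 1, 11 genes of the list passed higher and 5 lower. Only 3 passed lower without any 1 of the other 5 samples and with upper-quartile normalization, and without WT replicate 3 the genes called lower went from 2 to 1.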

How the data were processed

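RNA was sequenced from 3 WT and 3 Sirt6 cKO samples of mouse knee chondrocytes, grouped by the GEO labels. The authors deposited 1 table of raw counts per gene for all 6 samples, with gene positions and summed exon lengths. The submitters' processing notes name cutadapt, HISAT2 2.0.5, StringTie and the human build hg19, whereas the positions in the table fit mouse GRCm38.p6. The counting program and its strand setting are not given in the sources used here, so reads of overlapping genes cannot be told apart. Rows were named by position with the RefSeq table of GRCm38.p6, requiring a shared span of at least 0.5, which named 10599 of 11659 rows. All per-sample columns were used.

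Counts and labels were checked by the Spearman correlation of exon length with mean count. This was 0.250 and 0.295 in both identifier ranges used. Between these ranges it was -0.002, and 0.266 when the labels were moved by 1 row. Above the second range it was 0.372, and 0.503 at 3 rows. Rows outside the ranges entered the fit but no member was taken from them.

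Counts were filtered by filterByExpr, scaled by TMM and fitted with edgeR 4.0.16 in R 4.3.3, by genotype alone, with Benjamini-Hochberg adjustment over 11246 tested rows. Standard errors were derived from the log2 fold change and its F statistic. The adjusted p threshold of 0.05 and the fold thresholds of 2 and 0.5 follow the study's methods. Single ratios were compared by exact two-sided permutation tests. On simulated data for this comparison, 179 of 200 changed genes passed among 11169 tested, as did 11 unchanged genes. The changed genes were drawn above a minimum mean count and were far fewer than those that passed in the real data. No library effect like that of WT replicate 1 was simulated. These rates may therefore not hold for the genes with the lowest counts or for that library. A floor of 3 counts was 0.0991 to 0.125 CPM, which covers counting error only.

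The same replicate numbers occur in both genotypes. The deviations of same-numbered samples from their group means correlated at 0.363, 0.116 and 0.182. Differently numbered samples gave -0.333 to 0.113, and the highest of these, WT replicate 2 with Sirt6 cKO replicate 3, was close to 0.116. These values do not settle whether the numbers pair the samples, and no link is stated. The main tests were unpaired, and the replicate block was an alternative. Alternatives were other normalizations and filters, DESeq2 1.42.0, limma-voom (limma 3.58.1), the replicate block, other thresholds, the identifier ranges alone, and each sample left out in turn.

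The members and lists were chosen with earlier results of these data known. The naming rule took all members and the called genes of the pathway and marker lists. Other genes of those lists were named after their values were seen. No sequence is shown. The result of 1 gene of the lists is not reported here.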

Additional observations from a re-analysis of the deposited data

How the results depend on the processing

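Of 430 values of single genes over the alternatives, 399 kept their direction and their side of the test threshold, as did 123 of 136 counts of calls within 1.5 times. Over all rows, 981 genes were called higher and 804 lower. With rows in the identifier ranges alone, where fewer genes were tested, these were 592 and 499. With no fold threshold they were 2530 and 2736, with 8 Wnt members higher and 3 lower, 1 Hedgehog member lower and 2 Notch members higher. With at least 10 counts in every sample, Dkk2 and Sfrp2 were not tested and 0 Wnt members were called lower. With upper-quartile normalization and with total counts only, 1 Notch member was called lower, since Notch4 missed the fold threshold. Leaving out 1 sample at a time gave 951 to 1167 genes higher and 735 to 910 lower, 4 to 6 Wnt members higher and 1 to 2 Notch members lower. The sign turned for 3 members that did not pass. Fzd3 was -0.02 without WT replicate 1, the lowest of the fits without 1 sample, which reached 0.35. Ctnnb1 was 0.03 with upper-quartile normalization, 0.01 with total counts only and 0.01 without Sirt6 cKO replicate 3, with a lowest value of -0.07 without WT replicate 1. Jag1 was -0.18 without Sirt6 cKO replicate 3 and 0.34 without replicate 2. The cause was not tested. With the replicate block, 1071 genes were called higher and 798 lower, Apc was called at 1.11, as it was under 4 other alternatives, and the block changed no other call of a member. Dkk2, Sfrp2, Lgr5 and Porcn had low counts and standard errors of 0.62, 0.46, 0.41 and 0.31. Apc, with higher counts, had a standard error of 0.36. The source of these errors was not tested.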
